A study of Mus musculus with 4 samples.

Results

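The genes described here are 9 mouse genes whose signal was higher in tissue labelled null for Gemc1 than in wild-type (WT) tissue, in trachea and in oviduct alike: Adcy2, Itgb6, Atp6v0a4, Pkhd1l1, Snap25, Sv2b, Arg1, Adh7 and Armcx3. They are 9 of 30681 genes named on the array, and they were chosen for exactly that pattern, with the 4 arrays in view. Their differences between genotypes are therefore described and not tested. Gemc1, whose current symbol is Gmnc, encodes a geminin relative that starts the gene programme of multiciliated cells, and the series is titled for its part in that programme.

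Each of 4 groups had a single Affymetrix array: Gemc1-null trachea, WT trachea, Gemc1-null oviduct and WT oviduct. Both tracheas came from males of 39 days, both oviducts from females of 65 days, and all mice were of a mixed C57BL/6 x 129 strain. The RNA was total RNA of freshly dissected, untreated whole tissue. The sources used here do not say whether tissue of several mice was pooled or which part of Gemc1 was removed. In such tissue, fewer cells of a type and less RNA per cell cannot be told apart.

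The 9 genes have varied roles. Adcy2 makes cyclic AMP from ATP, Itgb6 pairs with integrin alpha v to release latent TGF-beta on epithelia, and Atp6v0a4 is a membrane subunit of the proton pump that acidifies the lumen in kidney and epididymis. Snap25 and Sv2b act in the release of vesicles, best known at nerve terminals. Arg1 and Adh7 are enzymes, of arginine and of alcohols including retinol, and Armcx3 is a mitochondrial outer membrane protein. Multiciliated cells line much of the airway and the oviduct, beside secretory and, in the airway, basal cells.

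Levels below are log2 RMA signals, where a difference of 1 is a 2-fold change, and differences are Gemc1-null minus WT within a tissue. The level filter kept a gene for a tissue if either of its arrays there read it at or above the median of that array. Of all genes so kept, 6.32% were at least 2-fold higher and 7.73% lower in trachea, and 0.807% higher and 2.75% lower in oviduct. At 1.5-fold the shares were 11.8% and 13.3% in trachea and 2.81% and 5.22% in oviduct. Array medians lay between 5.91 and 6.00, and the medians of the negative-control probe sets between 5.74 and 5.98. If the lower of 2 values fell under the negative-control median of its array, that median replaced it and the fold is given as at least so much. Each probe set has its own response, so levels are compared between arrays and never between genes.

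The deleted gene itself did not follow its labels in oviduct. Gmnc stood at 4.63 in Gemc1-null trachea and 5.90 in WT trachea, both below the negative-control median, and at 8.86 in Gemc1-null oviduct against 6.11 in WT oviduct. Because the deleted part is not known, this probe set does not settle the genotype, and "Gemc1-null" is used throughout for the arrays so labelled. Motile cilia markers were lower in both: of 11 named, 10 were at least 2-fold lower in trachea and 10 in oviduct. The oviduct label was borne out by Ovgp1, the oviduct glycoprotein, at 12.84 in Gemc1-null oviduct and 12.79 in WT oviduct, against 6.56 and 6.45 in the tracheas of the same genotypes. Airway secretory markers separated the tracheas, with a summed linear signal of 1128 over 10 genes in Gemc1-null trachea against 41698 in WT trachea. The genotypes were more alike in oviduct (r = 0.979 over all probe sets, controls included) than in trachea (r = 0.945). Between WT oviduct and WT trachea r was 0.948, so the tracheas were no more alike than the WT tissues. None of the 9 genes lies on chromosome 16, which carries Gmnc.

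**Figure D1:**
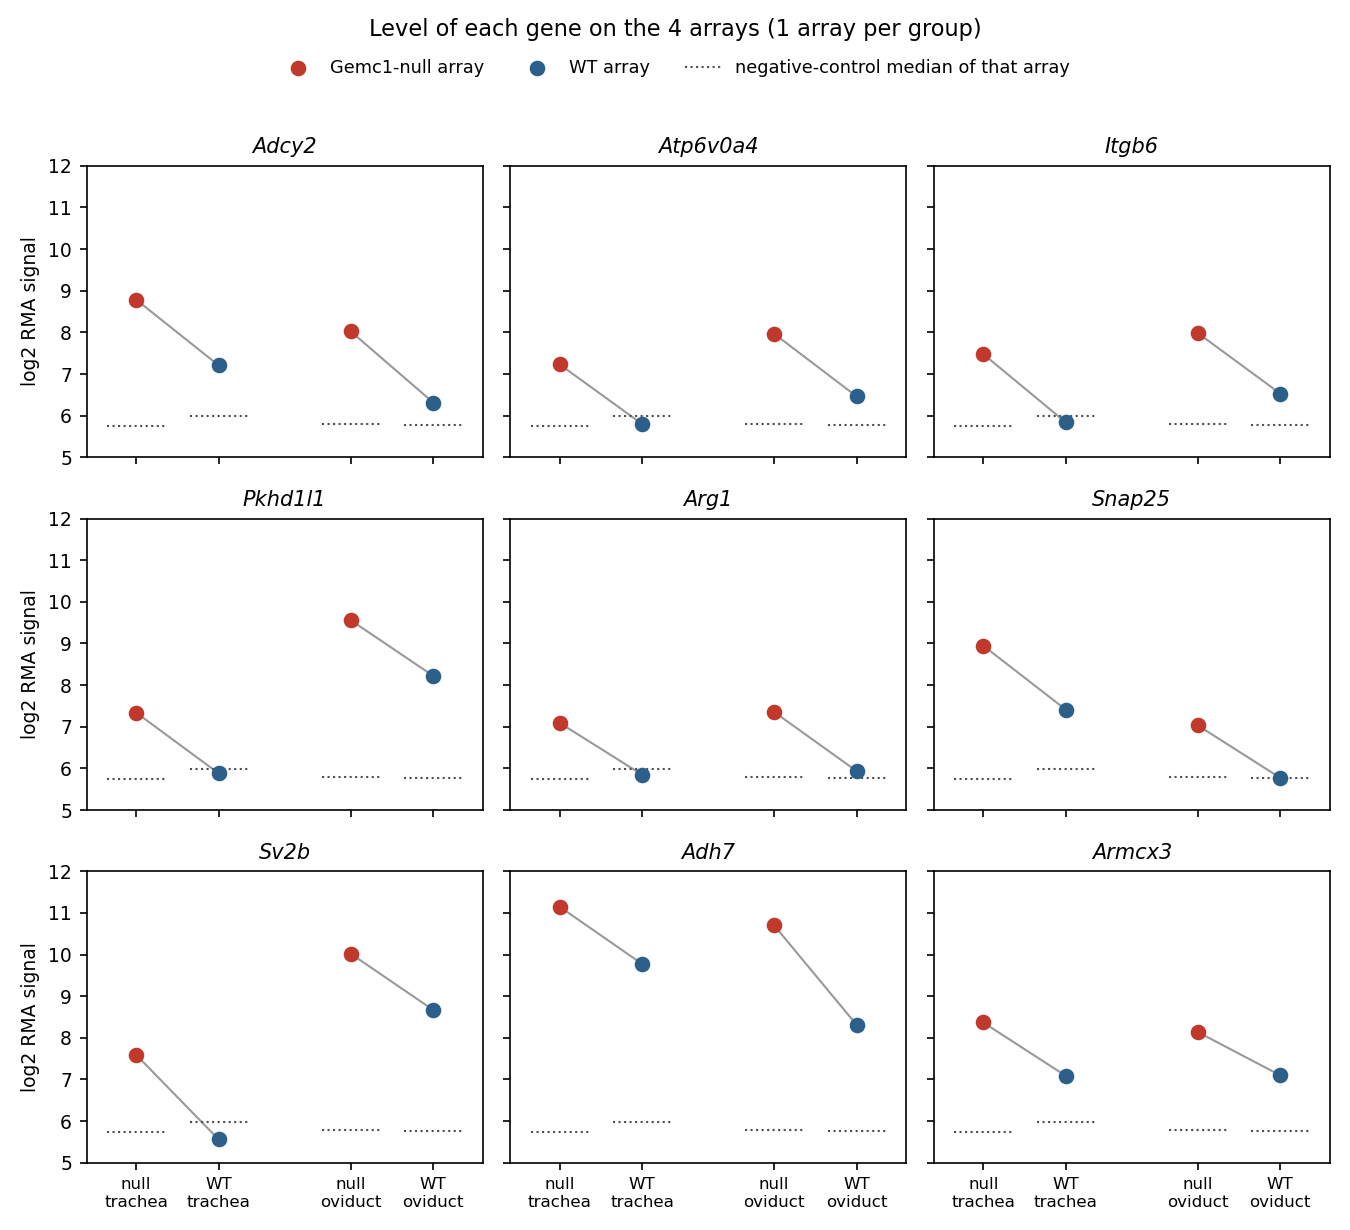
Log2 RMA signal of the 9 genes, 1 panel per gene, with the Gemc1-null array left of the WT array in each tissue, 1 point per array, and a dotted line at that array's negative-control median. Every Gemc1-null point lies above the WT point of its tissue, and 5 WT trachea points lie below their dotted line.

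Adcy2, the adenylyl cyclase of chromosome 13, had a signal of 8.78 in Gemc1-null trachea and 7.21 in WT trachea, and of 8.02 in Gemc1-null oviduct and 6.32 in WT oviduct. Both Gemc1-null arrays were above both WT arrays. The difference was 1.58 in trachea, a 2.99-fold higher signal, and 1.71 in oviduct, 3.27-fold. Of 7 other adenylyl cyclases past the filter in trachea, 1 was at least 2-fold higher (6.32% of all genes) and 1 lower (7.73%). Of 7 in oviduct none was past 2-fold in either direction (0.807% of all genes higher and 2.75% lower). At such shares a list this short does not tell whether the family shares the difference. In trachea Adcy1, a calcium-stimulated cyclase of neurons, differed by 1.33, Adcy7 by -1.84 and Adcy5 by -0.91. In oviduct those 3 differed by 0.08, 0.20 and 0.13. The differences of Adcy9 were 0.43 in trachea and -0.61 in oviduct, and those of Adcy3, a cyclase of cilia, -0.35 and -0.12.

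Itgb6, on chromosome 2, had a signal of 7.48 in Gemc1-null trachea and 5.84 in WT trachea, and of 7.98 in Gemc1-null oviduct and 6.53 in WT oviduct. The WT trachea value lay below the negative-control median, so the trachea difference of 1.64 stands for at least 2.82-fold, while the oviduct difference of 1.45 was 2.74-fold. Both Gemc1-null arrays were above both WT arrays. Itgav, its partner, differed by only 0.10 in trachea and 0.15 in oviduct, and Itgb8, the other TGF-beta-releasing beta subunit of epithelia, by 0.49 and 0.26. In the integrin list of 9 other genes, Itgb4, of hemidesmosomes, was 2.14-fold higher in trachea, and the leukocyte integrins Itgb2 and Itgb7 differed there by -1.65 and -1.59. None of the 9 passed 2-fold in oviduct, where the largest difference was the -0.44 of Itgb3.

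The TGF-beta genes are tied to Itgb6 by its role. Of 15 ligands, latency proteins and targets past the filter in trachea, 0 were at least 2-fold higher (6.32% of all genes) and 2 lower (7.73%). In oviduct 0 of 15 were higher (0.807% of all genes) and 1 lower (2.75%). At such shares nothing is read from the lack of higher genes. The lower genes were Tgfb1 (-1.16) and the receptor Tgfbr2 (-1.05) in trachea and the matrix protein Tnc (-1.11) in oviduct. Tnc also differed by -0.74 in trachea, and Tgfbi, a TGF-beta target, by 0.19 in trachea and -0.49 in oviduct.

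Atp6v0a4, on chromosome 6, had a signal of 7.23 in Gemc1-null trachea and 5.80 in WT trachea, and of 7.97 in Gemc1-null oviduct and 6.46 in WT oviduct. Both Gemc1-null arrays were above both WT arrays, with WT trachea below its negative-control median. The differences of 1.43 and 1.5 stand for at least 2.37-fold in trachea and 2.84-fold in oviduct. The other a subunits, which can take its place in the pump, did not share the pattern: Atp6v0a1 differed by 0.18 in trachea and -0.03 in oviduct, Atp6v0a2 by -0.14 and -0.29, and Tcirg1 by -0.65 and 0.04. Among 21 other subunits of the pump past the filter in trachea, 0 were at least 2-fold higher (6.32% of all genes) and 1 lower (7.73%). None of 21 was past 2-fold in oviduct (0.807% of all genes higher and 2.75% lower). The lower gene was Atp6v1b1, the B subunit of the same proton-secreting cells, with 6.32 in Gemc1-null trachea against 7.97 in WT trachea and 7.93 in Gemc1-null oviduct against 7.53 in WT oviduct. Its differences of -1.65 and 0.41 were opposite in sign.

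Proton-secreting cells carry further marker genes, of which 7 of 12 named passed the filter in trachea and 8 in oviduct. In trachea 1 was at least 2-fold higher and 1 lower, with 1 above 0 (52.7% of all genes), 6 below and a median of -0.19. In oviduct 2 were higher and 0 lower, with all 8 above 0 (60.2% of all genes) and a median of 0.35 (0.05 over all genes). Car12, a membrane carbonic anhydrase, had a signal of 10.05 in Gemc1-null trachea and 5.74 in WT trachea, and of 8.65 in Gemc1-null oviduct and 6.44 in WT oviduct. That is at least 16.8-fold in trachea and 4.61-fold in oviduct, more than for any of the 9 genes in trachea. Cftr, a chloride channel, was 2.14-fold higher in Gemc1-null oviduct and below the filter in trachea. Foxi1, the factor that defines these cells, differed by -0.25 in trachea and 0.11 in oviduct.

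Pkhd1l1, a large membrane protein related to fibrocystin and known from the stereocilia of mouse inner ear hair cells, lies on chromosome 15. Its signal was 7.34 in Gemc1-null trachea and 5.88 in WT trachea, and 9.56 in Gemc1-null oviduct and 8.22 in WT oviduct. Here the tissues overlapped across genotypes, since the WT oviduct array was above the Gemc1-null trachea array. The difference of 1.46 in trachea stands for at least 2.56-fold, with WT trachea below its negative-control median, and that of 1.34 in oviduct for 2.53-fold, or for a difference of 0.85 with levels raised to the 95th percentile of negative controls. Pkhd1, its closest relative and the gene of recessive polycystic kidney disease, was below the filter in trachea and higher by at least 1.18-fold in Gemc1-null oviduct. Of the other fibrocystin, polycystin and G8-domain genes, 4 passed the filter in trachea and 6 in oviduct. None was at least 2-fold higher in either (6.32% and 0.807% of all genes). Cemip, which also holds a G8 domain and takes part in hyaluronan breakdown, differed by 0.19 in trachea and -1.76 in oviduct.

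Snap25, a SNARE protein of the plasma membrane on chromosome 2, had a signal of 8.95 in Gemc1-null trachea and 7.41 in WT trachea, and of 7.03 in Gemc1-null oviduct and 5.77 in WT oviduct. WT trachea was thus above Gemc1-null oviduct, and the WT oviduct value lay at the negative-control median of its array. The difference was 1.53 in trachea, 2.90-fold, and 1.26 in oviduct, 2.40-fold. With levels raised to the 95th percentile of negative controls the trachea difference was 0.08. Its ubiquitous relative Snap23 differed by -0.11 and 0.20, and the partners Stx1a and Vamp2 by 0.03 and -0.14 in trachea and by -0.03 and 0.10 in oviduct.

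Sv2b, a synaptic vesicle glycoprotein of chromosome 7, showed the reverse order of tissues: its signal was 7.59 in Gemc1-null trachea and 5.56 in WT trachea, and 10.02 in Gemc1-null oviduct and 8.67 in WT oviduct. WT oviduct was above Gemc1-null trachea. The trachea difference of 2.03 stands for at least 3.05-fold, and the oviduct difference of 1.35 for 2.55-fold. The other SV2 genes differed less, Sv2a by 0.56 and 0.17 and Sv2c by 0.37 and 0.09. In the list of 20 other SNARE and synaptic vesicle genes, all past the filter, 17 were above 0 in trachea (52.7% of all genes) with a median of 0.38, and 13 in oviduct (60.2% of all genes) with a median of 0.11. None was past 2-fold in trachea, where Syt1, the calcium sensor of release, came closest at 0.98. In oviduct 1 was: Syn2, a synapsin, was 2.36-fold higher and differed by 0.45 in trachea.

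Markers of nerve were mostly higher by less than 2-fold in trachea. Of 12 named neuron and neuroendocrine markers 10 passed the filter in trachea, all 10 above 0, as were 52.7% of all genes, with 1 at least 2-fold higher and a median of 0.52, and their summed linear signal was 1857 in Gemc1-null trachea against 1198 in WT trachea. Th, of catecholamine synthesis, differed by 1.82. Elavl3, Chgb and Gap43 passed through the Gemc1-null array alone, so they had to be above 0. Elavl4 and Nefm, which did not pass, differed by 0.48 and 0.18, with both trachea values below the negative-control median. In oviduct 6 passed, 2 were above 0, the median was -0.07, and the sums were 1178 and 1113 in Gemc1-null and WT oviduct. All 5 Schwann cell markers named were above 0 in trachea, 1 of them at least 2-fold higher, with sums of 1650 in Gemc1-null and 994 in WT trachea, and 460 against 452 in oviduct. The part of these markers in the trachea differences was not tested.

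Arg1, the arginase of the urea cycle and of activated macrophages, lies on chromosome 10. Its signal was 7.09 in Gemc1-null trachea and 5.85 in WT trachea, and 7.35 in Gemc1-null oviduct and 5.93 in WT oviduct. Both WT arrays were near their negative-control medians, in trachea below it, and both Gemc1-null arrays were above both WT arrays, by 1.16 or more. The difference was 1.24 in trachea, at least 2.15-fold, and 1.42 in oviduct, 2.68-fold. Arg2, the mitochondrial arginase, was below the filter in trachea and differed by 0.03 in oviduct.

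In arginine metabolism 12 other genes passed the filter in trachea, with 1 at least 2-fold higher and 0 lower, and 14 in oviduct, with 0 higher and 2 lower. The higher gene was Nos1, the neuronal nitric oxide synthase, also found in skeletal muscle, with 9.57 in Gemc1-null and 6.30 in WT trachea. It was 6.44 in Gemc1-null and 6.30 in WT oviduct. The lower genes in oviduct were Gatm, of creatine synthesis, at -1.58, and Nos2, the inducible synthase, lower by at least 2.01-fold. Of 10 macrophage markers 10 passed the filter in trachea and 9 in oviduct, with 0 at least 2-fold higher in either (6.32% and 0.807% of all genes). Their medians were -0.48 in trachea and 0.01 in oviduct. The sums were 3349 in Gemc1-null against 9566 in WT trachea, and 2034 against 2394 in oviduct. Lyz2, a lysozyme, carried most of the trachea gap: without it the sums were 1650 in Gemc1-null and 2243 in WT trachea, and 4 of the 10 markers were above 0 there. Of 6 markers of alternative activation 4 and 3 passed, with 0 at least 2-fold higher, and Chil3 was below the negative-control median on all 4 arrays. The part of macrophages in the Arg1 differences was not tested.

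Adh7, the class IV alcohol dehydrogenase of upper digestive and airway epithelium on chromosome 3, was the one gene of the 9 above the 95th percentile of negative controls on both Gemc1-null arrays. Its signal was 11.15 in Gemc1-null trachea and 9.77 in WT trachea, and 10.70 in Gemc1-null oviduct and 8.31 in WT oviduct. Both Gemc1-null arrays were above both WT arrays. The difference was 1.37 in trachea, 2.59-fold, and 2.39 in oviduct, 5.24-fold, which is the largest oviduct difference of the 9 genes. Adh1, which also acts on retinol, differed by 0.29 in trachea and 1.05 in oviduct, Adh5 by -0.08 and -0.36, and Adh4 was below the filter in both tissues.

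The list of other alcohol and aldehyde dehydrogenases, retinoid enzymes and retinoid carriers split in direction. Of 18 others past the filter in trachea 2 were at least 2-fold higher and 4 lower, and of 17 in oviduct 2 were higher and 1 lower. Aldh1a1, which turns retinal into retinoic acid, went the opposite way to Adh7 in both tissues, with 9.88 in Gemc1-null and 12.30 in WT trachea and 8.07 in Gemc1-null and 10.15 in WT oviduct. Its signal was thus 5.35-fold lower in trachea and 4.21-fold lower in oviduct. The retinoic acid binding protein Crabp1 was higher in both just under 2-fold, by 0.99 and 0.97, and Crabp2 by 2.33, or at least 3.43-fold, in trachea and 0.79 in oviduct. Aldh3a1 was 4.31-fold higher in trachea and differed by 0.49 in oviduct, and Dhrs9, a retinol dehydrogenase, by 0.67 and 1.09.

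Markers of squamous and basal epithelium, cell types known to hold Adh7 and Itgb6, stood higher in Gemc1-null trachea but not in Gemc1-null oviduct. Of 9 named squamous markers 7 passed in trachea, all 7 at least 2-fold higher. Sprr3, Sprr1a, Krtdap and Tgm3 passed through the Gemc1-null array alone, so they had to be higher to pass. Ivl and Crnn, which did not pass, differed by 0.14 and 0.32 as measured. The summed linear signal of all 9 markers was 30508 in Gemc1-null trachea against 750 in WT trachea. In oviduct 3 passed with 0 past 2-fold, and the sums were 740 in Gemc1-null and 639 in WT. Of 9 airway basal markers 6 were at least 2-fold higher in trachea and 0 in oviduct, with sums of 14242 in Gemc1-null against 3458 in WT trachea and 1795 against 1628 in oviduct. All 10 skeletal muscle markers were at least 2-fold higher in trachea, with sums of 47244 in Gemc1-null and 1199 in WT, and none in oviduct, at 858 and 849. Myh1, Myh2, Myh4, Myh8, Neb and Myot passed in trachea through the Gemc1-null array alone, so they had to be higher. Acta1, Ckm, Tnnt3 and Atp2a1, at or above the WT array median too, differed by 4.43, 4.53, 4.45 and 6.53. The part of these squamous, basal and muscle markers in the trachea differences was not tested.

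**Figure D2:**
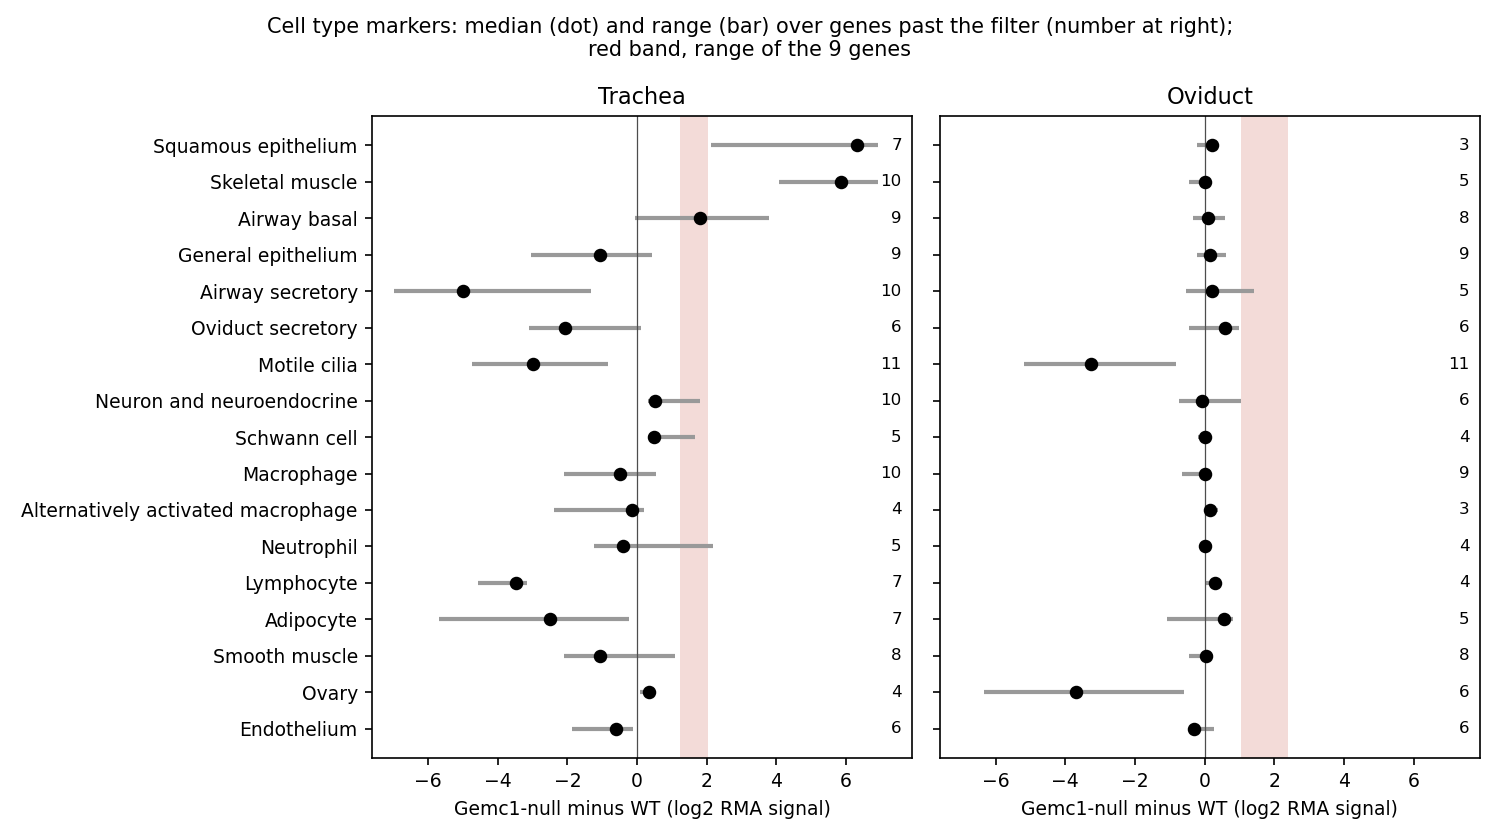
Median difference, Gemc1-null minus WT in log2 RMA signal, of each list of cell type markers past the filter (dot) with the range over its genes (bar), and the range of the 9 genes as a red band, for trachea and oviduct. Squamous epithelium (6.30) and skeletal muscle (5.85) lie far right in trachea and near 0 in oviduct (0.21 and 0.01), and motile cilia lies left in both (-2.99 and -3.26). Some squamous and skeletal muscle markers passed in trachea through the Gemc1-null array alone, so they had to be higher.

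In oviduct the list that stood lowest was that of ovary, with 5 of 6 markers at least 2-fold lower, a median of -3.68 and sums of 749 in Gemc1-null and 12310 in WT. General epithelium markers there had a median of 0.16 with 0 of 9 past 2-fold, against -1.07 and 7 of 9 lower in trachea. Oviduct secretory markers had a median of 0.58 in oviduct with 0 of 6 past 2-fold, and -2.08 in trachea with 4 lower. Of 10 airway secretory genes 5 passed the filter in oviduct, and 5 lay below the negative-control median on each oviduct array. Among those that passed 2 were at least 2-fold higher (0.807% of all genes), Agr2 by 1.43 and Scgb3a1 by 1.16. Muc5b differed by 0.20 and Ltf by 0.19, and Bpifb1 was lower by at least 1.30-fold. Of the other lists, lymphocyte (7 of 7) and adipocyte (6 of 7) markers were mostly at least 2-fold lower in trachea, with medians of -3.49 and -2.50, and differed by medians of 0.29 and 0.56 in oviduct. How far the 9 oviduct differences follow the share of ovary or of epithelium in the sample was not tested.

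Armcx3, on the X chromosome, had the smallest oviduct difference of the 9 genes and rests on 1 of its 2 probe sets. The brighter one had a signal of 8.37 in Gemc1-null trachea and 7.09 in WT trachea, and of 8.14 in Gemc1-null oviduct and 7.10 in WT oviduct. Both Gemc1-null arrays were above both WT arrays, by 1.28 in trachea, 2.43-fold, and 1.04 in oviduct, 2.06-fold. The other probe set read 7.33 in Gemc1-null and 6.78 in WT trachea, and 7.06 in Gemc1-null and 6.97 in WT oviduct, which is 1.46-fold and 1.06-fold. The identifier of the brighter probe set carries chromosome 7 and that of the other the X chromosome, while identifier and gene match in 99.6% of 31066 named probe sets. Which of them reads Armcx3 was not tested, so its place among the 9 genes is uncertain.

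**Figure D3:**
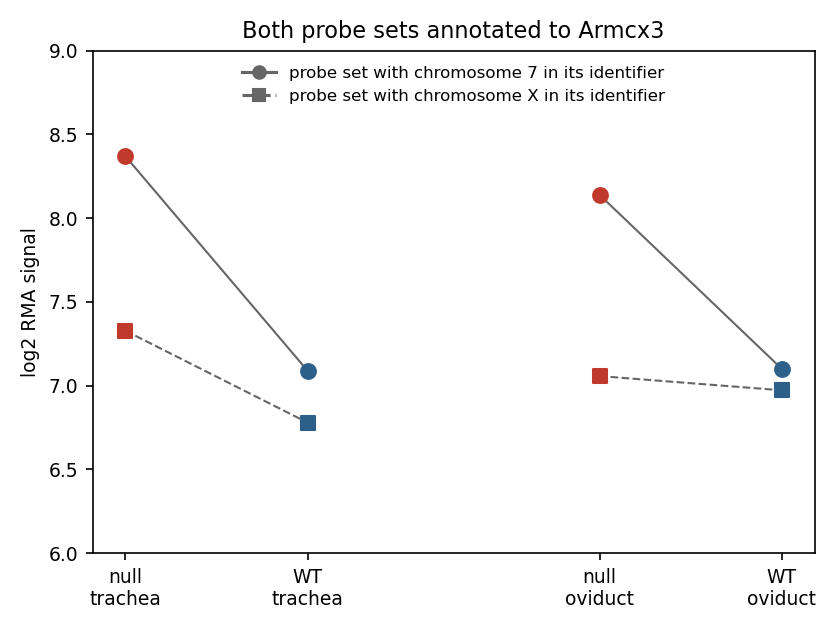
Log2 RMA signal of both probe sets annotated to Armcx3 on the 4 arrays, Gemc1-null left of WT in each tissue, 1 point per array. The probe set whose identifier carries chromosome 7 differs by 1.28 in trachea and 1.04 in oviduct, and the one that carries X by 0.55 and 0.08.

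Neighbours of Armcx3 in its gene cluster, which arose in placental mammals, were not past 2-fold. Armcx1 differed by 0.29 and 0.73, Armcx2 by -0.09 and 0.03, and Armcx6 by 0.20 and -0.17. Of the 13 other cluster and mitochondrial transport genes past the filter in trachea and 14 in oviduct, 0 were at least 2-fold higher or lower. Of all genes 6.32% were higher and 7.73% lower in trachea, and 0.807% and 2.75% in oviduct. The largest difference was in Kif5a, a kinesin heavy chain of neurons, at 0.79 in trachea. Kif5c, another, differed by 0.77 in oviduct and by 0.67 as measured in trachea. The latter stands for at least 1.53-fold, with WT trachea below the negative-control median.

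**Figure D4:**
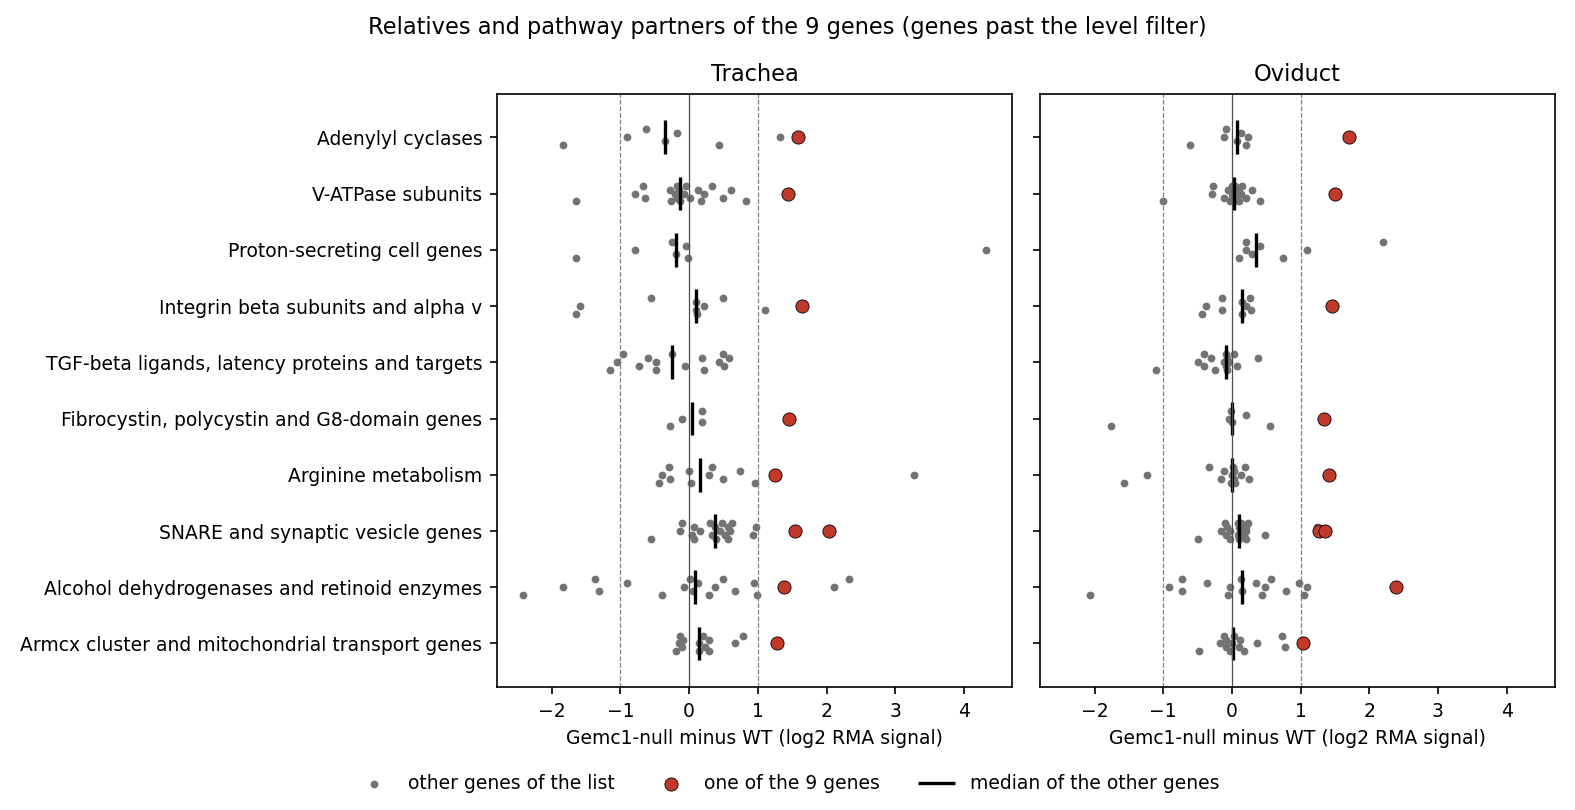
Differences, Gemc1-null minus WT in log2 RMA signal, of the genes in the 10 pathway lists, for trachea and oviduct, with the 9 genes marked. In both tissues the 9 genes lie past 1 on the log2 scale, and the list medians without them lie between -0.35 and 0.38. The 9 genes were picked for such differences, so nothing is read from their distance to the medians.

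Across the 10 lists, 143 other genes were named and 123 passed the filter in both tissues. Only Car12 of these was at least 2-fold higher in both (0.0636% of all genes), and Aldh1a1 was the one at least 2-fold lower in both. At 1.5-fold, which 0.435% of all genes reached in both tissues, the higher genes were 5: Car12, Crabp1, Crabp2, Kif5c and Dhrs9. Car12 and Crabp2 passed in trachea through the Gemc1-null array alone, so they had to be higher there. The lists were written with earlier results of these data known, so nothing is read from these counts.

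As a set, the 9 genes differed by 1.24 to 2.03 in trachea, with a median of 1.46, or by 1.11 to 1.61 with levels raised to the negative-control median, below which 5 WT trachea values lay. They differed by 1.04 to 2.39 in oviduct, with a median of 1.42. The median of all genes was 0.03 in trachea and 0.05 in oviduct. All 9 passed the filter in both tissues, 6 of them in at least 1 tissue through the Gemc1-null array alone, and such genes had to differ to pass. All 9 were at least 2-fold higher in both, against 0.0636% of all genes past the filter in both, 12 of 18870. Nothing is read from that share, since the genes were picked on the same differences.

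The other 3 of the 12 genes were Car12, Ano5 and Slc6a2. Ano5, a membrane protein of muscle and bone, had a signal of 8.55 in Gemc1-null and 4.44 in WT trachea and of 9.20 in Gemc1-null and 7.81 in WT oviduct, which stands for at least 5.90-fold and for 2.62-fold. Slc6a2, the noradrenaline transporter, had 7.88 in Gemc1-null and 6.12 in WT trachea and 7.41 in Gemc1-null and 6.40 in WT oviduct. By the smaller of the pair of differences, the measure of likeness over the 2 tissues, the next were Crabp1 (0.97), Lhfpl1 (0.96), Trpc4 (0.96 as measured, though at least 1.19-fold against a WT trachea value below the negative-control median), Gpx2-ps1 (0.93), Alad (0.92), Nptx1 (0.88) and Chac1 (0.87). At the 2-fold line Armcx3 (1.04) and Slc6a2 (1.02) lay just inside and Crabp1 just outside.

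**Figure D5:**
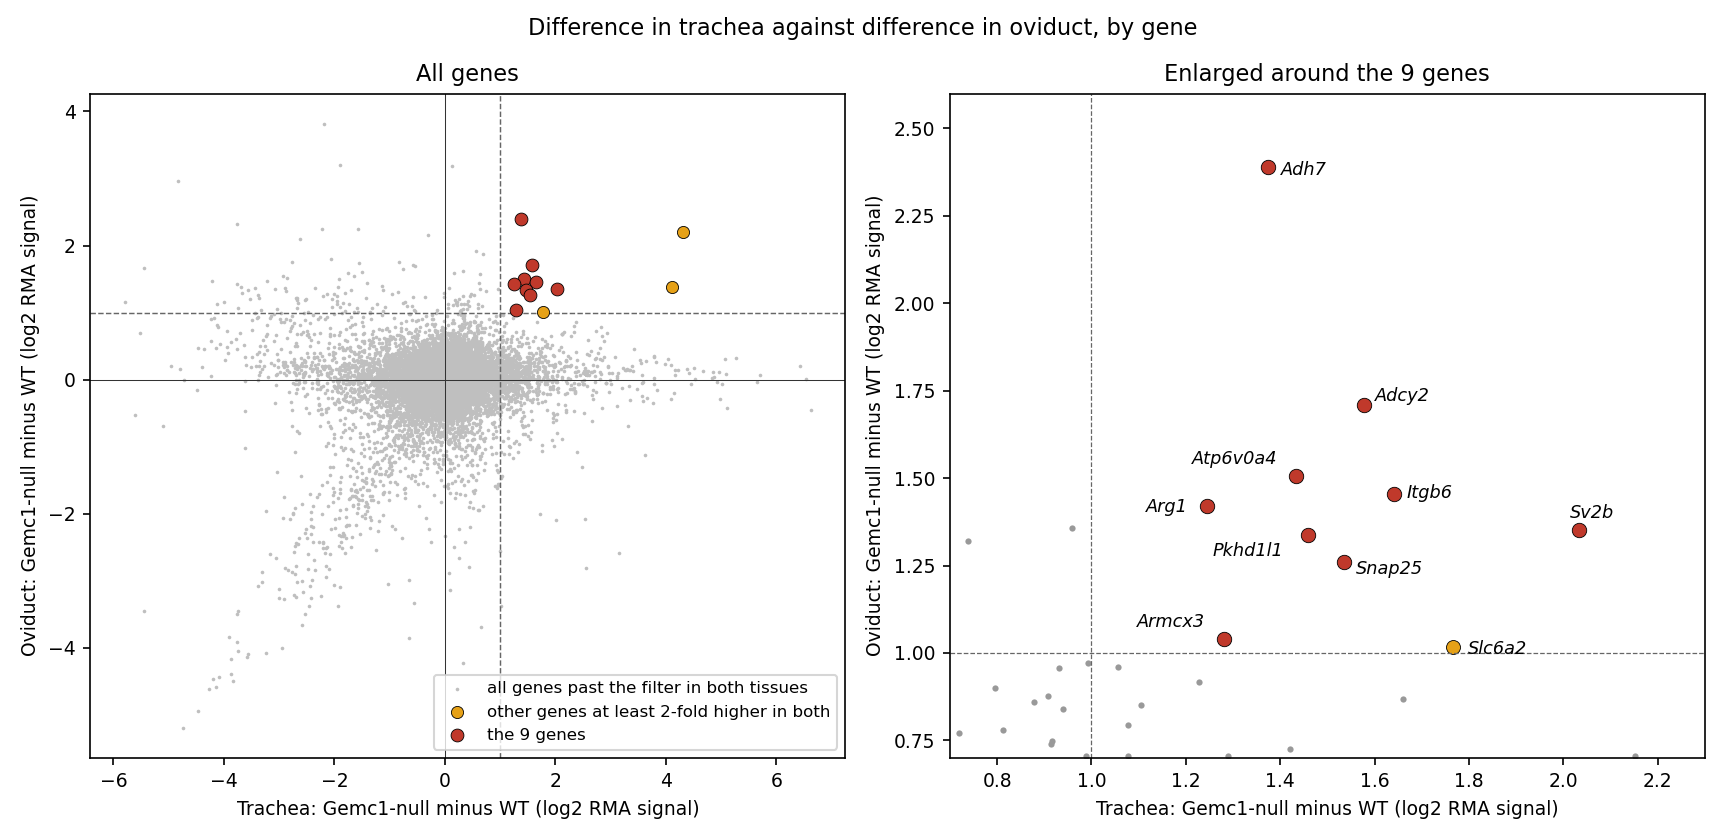
Each point is a gene past the filter in both tissues, placed by its Gemc1-null minus WT difference (log2 RMA signal) in trachea and in oviduct, with dashed lines at 2-fold and an enlarged view on the right. The 9 genes and 3 others occupy the upper right corner, Adh7 highest in oviduct (2.39) and Sv2b farthest right of the 9 in trachea (2.03 as measured, against a WT value below the negative-control median).

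Genes also varied in how alike the difference was between tissues. For the 4 genes above the negative-control median on all arrays, the oviduct difference minus the trachea difference was 0.13 for Adcy2, -0.27 for Snap25, 1.01 for Adh7 and -0.24 for Armcx3. For the other 5 the WT trachea value lay below that median, so the gap has no exact size. None of the gaps has an error, and none was tested.

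The genes also differed between oviduct and trachea within a genotype, a comparison that the choice of genes did not use directly, though tissue, sex and age cannot be told apart in it. Between WT arrays 2 of 9 were at least 2-fold higher in oviduct (4.55% of all genes) and 2 lower (6.22%). Sv2b was higher by at least 6.43-fold and Pkhd1l1 by at least 4.72-fold, while Snap25 was 3.12-fold and Adh7 2.76-fold higher in WT trachea. Between Gemc1-null arrays Sv2b and Pkhd1l1 were higher in oviduct (5.96% of all genes), by 5.39-fold and 4.66-fold, and Snap25 alone was lower (6.53%), being 3.77-fold higher in trachea. The oviduct minus trachea difference of Adh7 was -0.45 between Gemc1-null arrays and -1.46 between WT arrays. For Armcx3 the WT tissues differed by 0.01, and Arg1 was near or below the negative-control median in both.

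Promoter windows were read to show whether genes that were higher together share known core elements. They run from 250 bases before to 50 after the annotated start, from RefSeq with assembly GRCm38.p6, and 5 of the 9 genes had an entry, with 9 windows in all. The 3 shown are one window for each gene with any of the 5 motifs searched on both strands: TATAAA of the core promoter, the CCAAT box, the GC box GGGCGG, the AP-1 site TGANTCA and the cyclic AMP response element TGACGTCA. Capitals mark the matches, on either strand, and each window is written 5′ to 3′ on the gene's own strand.
Adcy2: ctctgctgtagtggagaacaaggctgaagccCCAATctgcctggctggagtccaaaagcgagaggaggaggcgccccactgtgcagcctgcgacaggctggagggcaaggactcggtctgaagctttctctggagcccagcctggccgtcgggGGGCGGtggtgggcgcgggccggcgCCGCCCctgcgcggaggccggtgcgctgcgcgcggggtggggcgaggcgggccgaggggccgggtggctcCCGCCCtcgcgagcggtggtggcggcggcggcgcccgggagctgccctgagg
Sv2b: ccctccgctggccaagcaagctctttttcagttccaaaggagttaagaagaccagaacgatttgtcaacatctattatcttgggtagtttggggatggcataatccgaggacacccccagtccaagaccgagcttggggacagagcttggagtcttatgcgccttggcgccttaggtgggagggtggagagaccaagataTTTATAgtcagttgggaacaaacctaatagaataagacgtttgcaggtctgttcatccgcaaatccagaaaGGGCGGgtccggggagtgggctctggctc
Adh7: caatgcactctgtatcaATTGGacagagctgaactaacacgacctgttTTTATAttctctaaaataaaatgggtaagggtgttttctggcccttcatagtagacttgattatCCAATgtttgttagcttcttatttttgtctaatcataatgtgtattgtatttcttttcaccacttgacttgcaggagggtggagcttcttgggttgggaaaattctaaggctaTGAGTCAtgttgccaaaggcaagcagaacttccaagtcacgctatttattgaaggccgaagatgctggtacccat
The windows are chr13:68999492-68999791 on the minus strand for Adcy2, chr7:75309213-75309512 on the minus strand for the first of the Sv2b starts, and chr3:138217523-138217822 on the plus strand for Adh7.

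The 3 promoters were unlike each other. That of Adcy2 was 75.0% G and C, with 3 GC boxes, 97, 72 and 2 bases before the start, and a CCAAT 219 before. That of Adh7 was 39.3% G and C, with a TATAAA 202 bases before the start, a CCAAT 233 and another 138 before, and the only TGANTCA, 25 before. The Sv2b window held a TATAAA 50 bases before and a GC box 22 after its start, and another Sv2b window, not shown, a TATAAA 232 before. Every one of these TATAAA matches was on the strand opposite to the gene. Distances are to the first base of a match as written, so the Adcy2 GC box 2 before runs across the start. At most 2 of the 5 genes with an entry shared a motif. Of all 32851 promoter windows of that length, 13.6% held TATAAA, 37.4% CCAAT, 35.7% GGGCGG, 7.81% TGANTCA and 1.79% TGACGTCA. The windows of Itgb6 and Atp6v0a4 held none of these letters, which says nothing of the factors themselves.

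Genotype was also fitted in limma over both tissues at once, blocking on tissue, with 1 residual degree of freedom. Of 20975 genes 0 (0%) passed a Benjamini-Hochberg adjusted p of 0.05, the smallest adjusted p being 0.510. An unadjusted p under 0.05 was found for 732, 167 of them higher and 565 lower. That is a share below 0.05 of the 20975 genes, so nothing is read from the count or its split. No p is given for the 9 genes, which were chosen on the same arrays.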

How the data were processed

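Total RNA of 4 samples, 1 per group of tissue and genotype in the labels, was hybridised to 1-colour Affymetrix arrays. The authors deposited 1 value for each probe set on each array, made with RMA on a log2 scale per the submitters' processing notes. It carries a further log2: 2 to the power of the deposited value had 6 significant digits in 100% of cells (relative tolerance 1e-09), against 0.044% as deposited. That power was used as log2 RMA signal. No source used here gives the array's genome build.

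Of 65956 transcript clusters 31233 had 1 gene, 1517 several and 33206 were not listed. Symbols came from the platform annotation, updated through RefSeq GRCm38.p6, and a gene took its probe set with the highest mean. The filter left 20149 genes in trachea and 19696 in oviduct. Genes were counted by size (2-fold), since 1 array per group allows no test within a tissue. The limma fit (limma 3.58.1, R 4.3.3, with Python 3.11.15 and pandas 2.3.3 for the rest) joined the tissues, served as background and was tested on simulated data.

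The genes and all lists were chosen with earlier results of these data known. Named were the 9 genes, any other gene at least 2-fold higher in both tissues, the 10 most like them, set relatives, the 3 largest differences per pathway list and tissue and the 2 largest per marker list, Gmnc, and Atp6v0a2, which was added to the a subunits after its values were seen. Not all are printed. Alternatives were the probe set rule, centring, floors at negative controls, the fold and the limma settings. Some listed genes were not analysed here.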

Additional observations from a re-analysis of the deposited data

Results flagged for a closer look

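Among the genes of the pathway lists, 2 went in opposite directions in the tissues by at least 1.5-fold in each, a difference that was not tested. Atp6v0e2, a small subunit of the same proton pump as Atp6v0a4, differed by 0.83 in trachea and by -0.997 in oviduct (Gemc1-null minus WT, log2 RMA signal). Gatm, which uses arginine as Arg1 does, differed by 0.95 in trachea and by -1.58 in oviduct.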

How the results depend on the processing

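All 9 genes stayed at least 2-fold higher in both tissues with arrays shifted to a common median and with levels raised to the negative-control median. With the mean over probe sets, or with the probe set of Armcx3 that carries the X chromosome (an alternative chosen after seeing the data), 8 did, Armcx3 being the one lost: its differences were 0.92 and 0.56 with the mean, and 0.55 and 0.08 with that probe set. With levels raised to the 95th percentile of negative controls, 1 of the 9 was left, Adh7, because 13 of the 18 differences then had no value and 2 more fell under 2-fold, Snap25 in trachea (0.08) and Pkhd1l1 in oviduct (0.85). The genes at least 2-fold higher in both numbered 11 or 12 under the other settings tried, 82 at 1.5-fold and 1 at 3-fold. At 1.5-fold the other pathway genes gave 20 higher and 19 lower in trachea and 10 higher and 10 lower in oviduct, against 6 and 10, and 5 and 5, at 2-fold. The limma fit gave 0 genes under each setting tried, with 732 at an unadjusted p under 0.05, 768 with a trend, 555 without the block and 1060 without the filter. The last count is of 30681 genes and the others of 20975, so each is a share below 0.05. No paired analysis was possible because each group holds 1 array, beyond the block on tissue in the limma fit. For the same reason no array could be left out, and no value has an error. Signal limits the low end: 5 of the 9 WT trachea values lie below the negative-control median, so their folds are bounds.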

Other observations

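Genes with several probe sets show how often a second reading shares a 2-fold call, the question raised by Armcx3. Of 13 such genes at least 2-fold higher in Gemc1-null than in WT trachea by their brightest probe set, 4 were so by all their probe sets, and of 2 in oviduct none was. For genes at least 2-fold lower the counts were 15 of 23 in trachea and 8 of 12 in oviduct. No other probe set of the 13 and the 2 had the opposite sign, against 1 of the 23 and 2 of the 12. The brightest probe set was the one that made the call, so the others are the less bright ones by construction.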
